A study of Mus musculus with 12 samples.

Results

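CREB factors, the CRTC coactivators that bind them, the SIK kinases that hold CRTCs back and the acetyltransferases CBP and p300 were examined as 10 genes in mouse macrophages grown from bone marrow and exposed to an allergen, house dust mite (HDM), or to vehicle. The genes were taken by symbol: Creb1, Crem and Atf1, Crtc2 and Crtc3, Sik1, Sik2 and Sik3, and Crebbp and Ep300. All 10 were found among the 50559 symbols of the count table, and all 10 passed the filter on low counts, which left 13530 tested genes. The series has 6 libraries of macrophages treated for 1 h with HDM, a common airway allergen, and 6 libraries treated for 1 h with vehicle. Macrophages of both groups were grown from bone marrow of C57BL/6 mice, and the labels give no other genotype, no age and no sex. Its title concerns AKAP79/150, an anchoring protein for protein kinase A and calcineurin. No label ties a library to an animal or a culture, and the p-values therefore reflect only the spread between libraries, which may be technical.

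CREB1, CREM and ATF1 are bZIP transcription factors that bind the cAMP response element (CRE) and are switched on by phosphorylation of a shared serine, by protein kinase A and by kinases downstream of MAP kinases. CBP and p300, the histone acetyltransferases encoded by Crebbp and Ep300, are recruited by the phosphorylated factors. CRTCs are coactivators kept in the cytoplasm when salt-inducible kinases (SIKs) phosphorylate them, and calcineurin removes those phosphates. In macrophages, inhibition of SIKs is known to raise interleukin-10. Much of this control acts on proteins, which RNA counts do not measure.

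Counted reads per library ran from 19.8 M to 119.7 M with HDM (median 41.1 M) and from 19.7 M to 62.4 M with vehicle (median 41.7 M). All 8 macrophage markers passed the filter, at a summed 16724 to 20540 CPM (counts per M reads) with HDM and 16464 to 20936 CPM with vehicle, and edgeR called 0 of them (0 at an unadjusted p under 0.05, 0 with DESeq2, limma-voom or library number as a block). Of 34 markers of other cell types, 5 reached a mean of 1 CPM (Itgax, S100a8, Cd4, Pecam1 and Pf4), and none of the 10 that passed the filter was called by edgeR (1 at an unadjusted p under 0.05, 0 with DESeq2 or limma-voom, 2 with the block). Of all 13530 tested genes, 1889 had an unadjusted edgeR p under 0.05, and 14.7% were called with the block. Mcpt8, Fcer1a, Ms4a2, Hba-a1 and Hbb-bs had 0 reads. The first principal component of log2 CPM, with 42.2% of the variance, set the 4 libraries numbered 5 and 6 (27.8 to 36.1) apart from the 8 numbered 1 to 4 (-21.7 to -10.1). This split runs across both treatments and touches several of the 10 genes, so values are also given within each set of numbers.

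The CRE is a short palindrome, TGACGTCA, and its half-site TGACG also binds these factors. Promoter windows of RefSeq (GRCm38.p6, from 250 bases before to 50 bases after the gene start) were at hand for 7 of the 10 genes, all but Crem, Crtc2 and Sik1. A half-site on either strand, alone or inside a full site, was found in 3 of the 7 (Atf1, Sik2 and Sik3) and a full site in 0. Over all genes with a window, 23.0% held a half-site and 2.03% a full site. The windows of Sik2 (chr9:51009024-51009323, minus strand) and Sik3 (chr9:46012570-46012869, plus strand) are printed because these members hold the most half-sites, beside those of Nr4a1 (chr15:101266596-101266895, plus strand) and Dusp1 (chr17:26508423-26508722, minus strand), known CREB targets whose transcripts rose here. Each is written 5′ to 3′ along the gene with half-sites in capitals, and in Dusp1 a pair of half-sites joins into the full TGACGTCA.
Sik2: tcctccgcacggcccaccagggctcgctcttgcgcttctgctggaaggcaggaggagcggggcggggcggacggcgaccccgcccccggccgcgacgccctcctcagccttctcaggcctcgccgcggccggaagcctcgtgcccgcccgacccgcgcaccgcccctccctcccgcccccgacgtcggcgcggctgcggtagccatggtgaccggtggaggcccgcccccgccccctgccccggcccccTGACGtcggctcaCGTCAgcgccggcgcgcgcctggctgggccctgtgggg
Sik3: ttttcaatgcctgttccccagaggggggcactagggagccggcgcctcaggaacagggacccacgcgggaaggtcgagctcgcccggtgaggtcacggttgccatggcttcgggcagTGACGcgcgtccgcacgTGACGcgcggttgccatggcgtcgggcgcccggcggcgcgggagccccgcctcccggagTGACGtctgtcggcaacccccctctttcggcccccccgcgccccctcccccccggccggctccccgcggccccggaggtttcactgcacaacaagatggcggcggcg
Nr4a1: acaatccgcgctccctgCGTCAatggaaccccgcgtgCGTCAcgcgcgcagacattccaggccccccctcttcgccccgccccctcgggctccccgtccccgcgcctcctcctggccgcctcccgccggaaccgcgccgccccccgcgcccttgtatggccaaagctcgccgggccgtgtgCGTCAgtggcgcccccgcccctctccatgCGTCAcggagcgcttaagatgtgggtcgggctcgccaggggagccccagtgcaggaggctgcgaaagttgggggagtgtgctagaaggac
Dusp1: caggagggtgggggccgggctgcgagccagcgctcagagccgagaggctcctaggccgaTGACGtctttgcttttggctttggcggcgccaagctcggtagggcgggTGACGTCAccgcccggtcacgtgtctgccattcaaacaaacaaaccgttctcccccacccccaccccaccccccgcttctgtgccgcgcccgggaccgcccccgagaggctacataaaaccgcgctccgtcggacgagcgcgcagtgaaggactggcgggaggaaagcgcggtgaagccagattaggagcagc
In these windows the half-sites begin at -1 and 13 of Sik2, and at -133, -116 and -57 of Sik3, counted with the first transcribed base as 1 and the base before it as -1. In Nr4a1 they begin at -233, -213, -69 and -40, and in Dusp1 at -191, -143 and -140. Nr4a1 and Dusp1 are rich in sites among the CREB targets that rose. Windows of those targets held from 0 half-sites (Ptger4, Cited2) to 4 (Nr4a1, Nr4a2, Nr4a3), and 2 of 17 genes held a full site. A match of letters is a description and shows no binding.

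The comparison of HDM with vehicle asks which transcripts the allergen changes within 1 h. Across the 10 genes the changes were small beside those of CREB target genes, a list chosen with earlier results of these data known. Crem was the only member with a fitted change above 0.2 on the log2 scale. With treatment as the only term, edgeR's quasi-likelihood test called 0 of the 10 at an adjusted p under 0.05, against 5.37% of all tested genes, 2.9% higher and 2.47% lower with HDM. At an unadjusted p under 0.05 there was 1 member of the 10, Ep300, beside 1889 of the 13530 tested genes. DESeq2 called 1, again Ep300, beside 7.06% of all tested genes, and limma-voom called 0, beside 5.76%. Upper-quartile factors (5.68% of genes called), total library size (5.62%) and no low-count filter (2.05%) also gave 0 members. With library number as a block, which removes the differences between numbers, Crem, Ep300 and Crtc2 rose and no member was called lower, though Atf1 was under other scalings or without number 1, so 3 of 10 were called against 14.7% of all tested genes (7.9% higher and 6.81% lower with HDM). The median log2 change of the 10 was 0.04, against -0.005 over all tested genes, and the median size was 0.058 against 0.059. When libraries of the same number were set against each other, Crem and Ep300 were higher with HDM in all 6 numbers, as were 8.98% of all tested genes, and no member was lower in all 6, as 8.95% were. In each of the 10 genes the ranges of the treatments overlapped, while 4.39% of all tested genes had ranges that did not (2.32% with HDM above and 2.07% with HDM below).

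**Figure D1:**
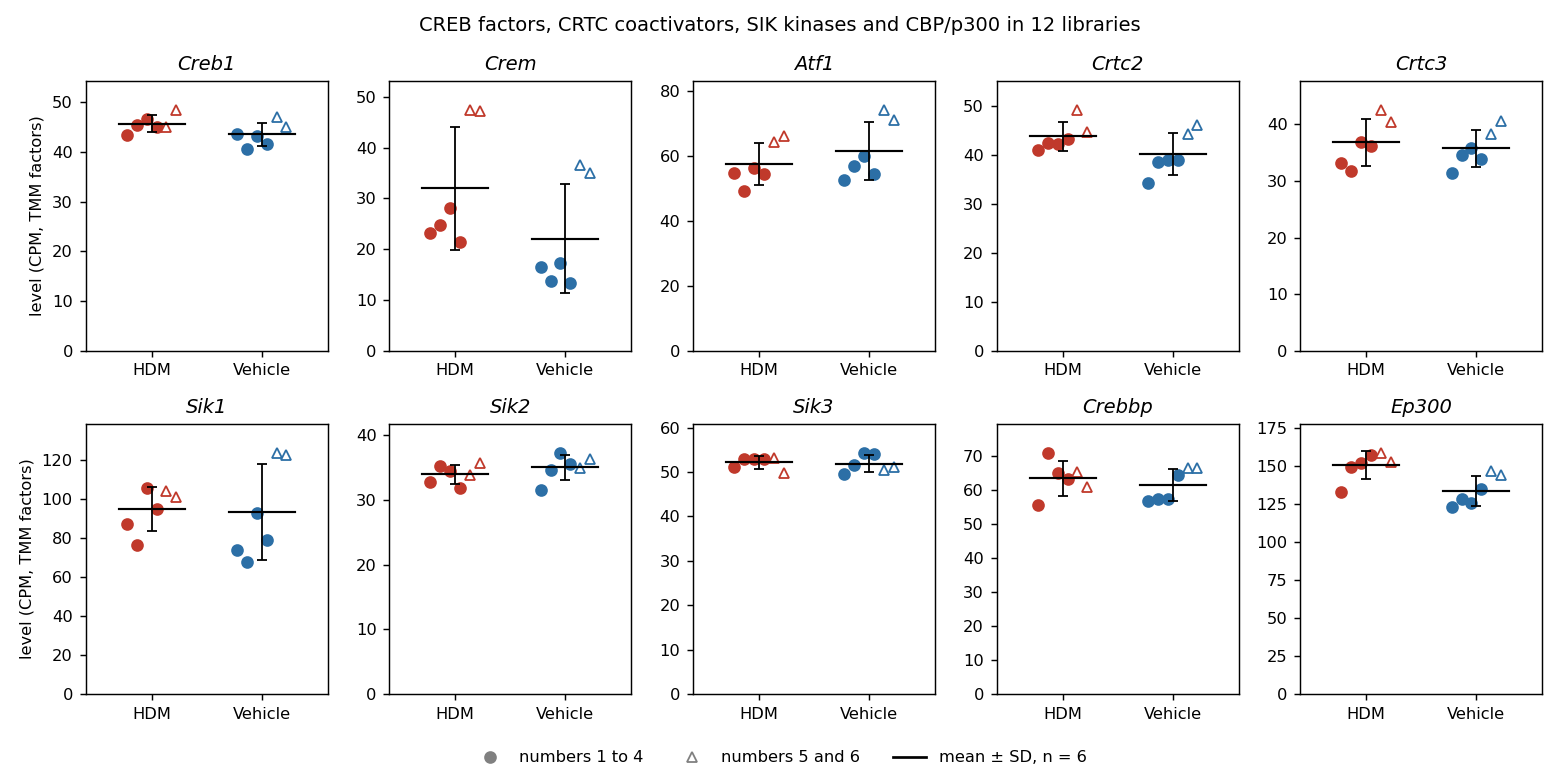
Level in CPM (y axis, from 0) of each of the 10 genes in the 6 HDM and 6 vehicle libraries, with circles for numbers 1 to 4, triangles for numbers 5 and 6, and bars for mean ± SD. Crem averaged 32.0 CPM with HDM and 22.1 CPM with vehicle, and its triangles lie above its circles in both treatments.

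Crem encodes both activators and repressors that bind the CRE, among them ICER, an inducible repressor made from an internal promoter. Its level with HDM was 21.4 CPM at the lowest, 26.4 at the median and 47.4 at the highest, against 13.4, 16.9 and 36.6 CPM with vehicle. The 2 treatments overlap over all libraries, and the number sets differ by more than the treatments do. In numbers 5 and 6 Crem lay at 47.4 and 47.3 CPM with HDM and at 36.6 and 35.0 CPM with vehicle. In numbers 1 to 4 it lay at 23.1, 24.7, 28.1 and 21.4 CPM with HDM and at 16.5, 13.7, 17.4 and 13.4 CPM with vehicle. Within each set every HDM library was above every vehicle library. The share of all tested genes that separate in this way within a set was not counted. With n = 2 each in numbers 5 and 6, such a separation can easily arise by chance. The reads behind these values were 560 to 2781 per HDM library and 497 to 1445 per vehicle library.

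Over all 12 libraries the log2 fold change of Crem was 0.55 ± 0.31 (SE, n = 6 each), which did not pass the test (edgeR adjusted p = 0.52). With library number as a block it was 0.57 ± 0.05 (adjusted p = 4.24e-07), and it stayed between 0.52 and 0.61 with both libraries of any 1 number left out (adjusted p at most 2.52e-06). Within numbers 5 and 6 it was 0.42 ± 0.05 (adjusted p = 7.54e-08, n = 2 each, edgeR), where 8.47% of tested genes were called, and within numbers 1 to 4 it was 0.66 ± 0.09 (adjusted p = 0.000572, n = 4 each, edgeR), where 7.88% were. With number as a block within each set, the shares were 8.74% in numbers 5 and 6 and 12.8% in numbers 1 to 4, and Crem rose in both. The fold differed between the number sets by -0.26 ± 0.09 (5 and 6 minus 1 to 4), which was not called (interaction adjusted p = 0.311). Counts per gene sum all transcripts, 39 of them in GENCODE M21, so ICER and full-length CREM forms cannot be told apart here. In that annotation 8.01% of the exon bases of Crem are overlapped on the opposite strand by the gene model Gm6225.

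Creb1, the founding member of the family, ran from 43.5 to 48.5 CPM with HDM (median 45.2) and from 40.6 to 47.0 CPM with vehicle (median 43.5). Its log2 fold change was 0.07 ± 0.04 (edgeR adjusted p = 0.535), and 0.07 ± 0.03 with the block (adjusted p = 0.173). Atf1, its close relative, was at 49.1 to 66.3 CPM with HDM (median 55.5) and at 52.7 to 74.2 CPM with vehicle (median 58.4). It was the member with the lowest fold change, -0.10 ± 0.10 (adjusted p = 0.865), and was lower with HDM in 5 of 6 numbers. With the block Atf1 was at -0.09 ± 0.03 (adjusted p = 0.0915), and there its call depended on the scaling: with upper-quartile factors it fell by 0.11 (adjusted p = 0.041) and with total library size by 0.11 (adjusted p = 0.036). Atf1 also fell with the block when number 1 was left out (by 0.12, adjusted p = 0.0341). In numbers 5 and 6 alone it fell by 0.15 ± 0.04 (adjusted p = 0.0257), and in numbers 1 to 4 it was at -0.06 ± 0.05 (adjusted p = 0.576). The fold change of Atf1 was not shown to differ between these sets (-0.09 ± 0.07, interaction adjusted p = 0.741).

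**Figure D2:**
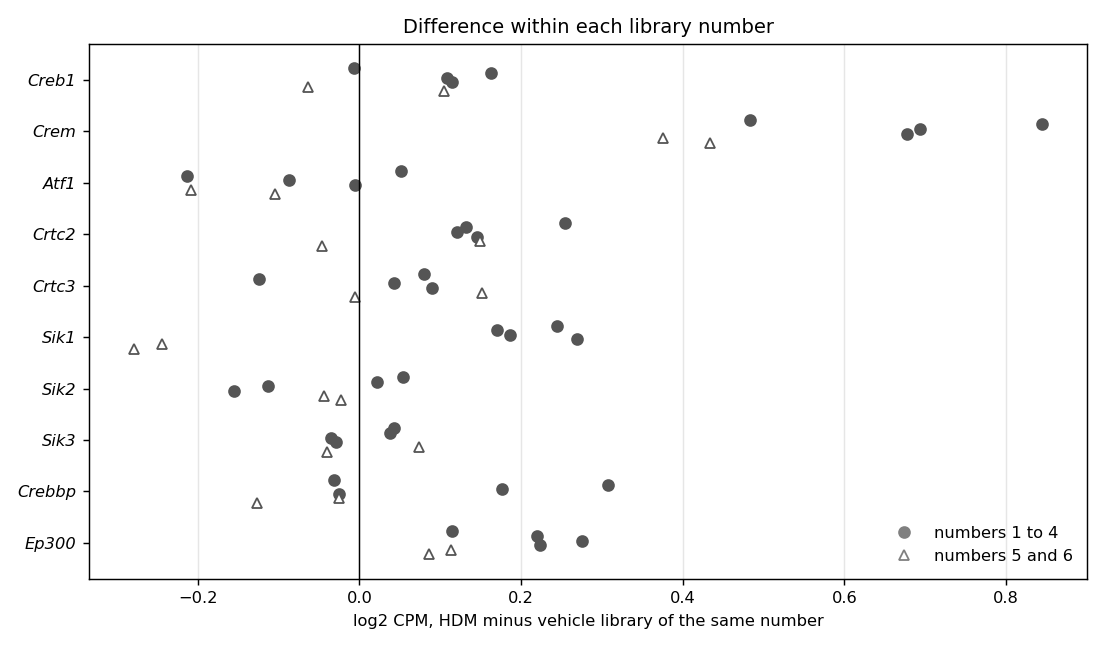
HDM minus vehicle in log2 CPM within each library number (x axis) for each of the 10 genes, with circles for numbers 1 to 4 and triangles for numbers 5 and 6. Crem lies between 0.38 and 0.84 and Ep300 between 0.09 and 0.28 in all numbers, while Sik1 is below 0 in numbers 5 and 6 and above 0 in numbers 1 to 4.

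The 2 CRTC coactivators sit downstream of the SIKs. Crtc2 ran from 41.0 to 49.2 CPM with HDM (median 42.7) and from 34.3 to 46.2 CPM with vehicle (median 38.9). Without the block its log2 fold change of 0.12 ± 0.07 was not called (edgeR adjusted p = 0.509). With the block it rose by 0.13 ± 0.03 (adjusted p = 0.0178), a change of about 9% in level (fold 1.09), and it was higher with HDM in 5 of 6 numbers. That call was lost without number 1 (adjusted p = 0.0693), and number 6 had the one negative difference, at -0.05. Within numbers 5 and 6 Crtc2 was at 0.05 ± 0.05 (adjusted p = 0.651), and within numbers 1 to 4 it rose by 0.16 ± 0.04 (adjusted p = 0.0383), with no difference called between the sets (-0.12 ± 0.07, interaction adjusted p = 0.619). Crtc3 lay at 31.7 to 42.6 CPM with HDM (median 36.5) and at 31.4 to 40.6 CPM with vehicle (median 35.2). Its fold change of 0.04 ± 0.08 was not called (adjusted p = 0.99, and 0.58 with the block). The other CRTC gene, Crtc1, is named here outside the rule for named genes, after its value was seen. It averaged 16.1 ± 1.88 CPM with HDM and 17.0 ± 1.16 CPM with vehicle (SD, n = 6 each), at -0.08 ± 0.08 (adjusted p = 0.851).

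Sik1, the SIK gene known as a CREB target that is induced by cAMP, showed opposite differences in the 2 number sets. In numbers 5 and 6 it was at 104.4 and 101 CPM with HDM and at 123.7 and 122.8 CPM with vehicle, lower with HDM in each. In numbers 1 to 4 it was at 87.3, 76.5, 106.03 and 95.1 CPM with HDM and at 73.7, 68.0, 93.2 and 78.9 CPM with vehicle, higher with HDM in each number. Over all 12 libraries the log2 fold change of Sik1 was 0.03 ± 0.15 (edgeR adjusted p = 1) and 0.06 ± 0.06 with the block (adjusted p = 0.621). Within numbers 5 and 6 Sik1 fell by 0.26 ± 0.04 (adjusted p = 1.96e-06, n = 2 each, edgeR). With so few libraries the p-values in this set rest largely on spread shared across genes. Within numbers 1 to 4 Sik1 was at 0.22 ± 0.10 and was not called (adjusted p = 0.268, n = 4 each). With number as a block in those 8 libraries Sik1 rose by 0.22 ± 0.03 (adjusted p = 0.000129). The interaction of treatment with number set was -0.48 ± 0.05 for Sik1 (adjusted p = 3.36e-05), a test chosen after the data were seen, in which 0.473% of all tested genes were called, and no other member was.

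The sets also differ in level within each treatment. Sik1 in numbers 5 and 6 was 1.13 times its mean in numbers 1 to 4 with HDM, and 1.57 times with vehicle. For Crem these ratios were 1.95 with HDM and 2.35 with vehicle. Crem, Atf1, Crtc2 and Crtc3 lay higher in numbers 5 and 6 than in any library numbered 1 to 4, in both treatments, so 4 of 10 did, beside 17.9% of all tested genes. Marker levels moved with the same split. The 6 dendritic cell markers summed to 194.6 to 202 CPM in numbers 5 and 6 and to 79.6 to 142 CPM in numbers 1 to 4, nearly all of it Itgax, with Flt3, Zbtb46, Xcr1, Siglech and Ccr7 under 1 CPM. The 5 erythroid and megakaryocyte markers, nearly all Pf4, summed to 97.03 to 108 CPM in numbers 5 and 6 and to 167 to 197 CPM in numbers 1 to 4. The 8 macrophage markers summed to 16464 to 16968 CPM in numbers 5 and 6 and to 17126 to 20936 CPM in the others. The 6 neutrophil markers, of which only S100a8 reached a mean of 1 CPM, summed to 5.33 to 6.19 CPM in numbers 5 and 6 and to 3.52 to 5.03 CPM in numbers 1 to 4. The summed levels of the other 3 lists stayed at or under 6.61 CPM and overlapped between the sets. The part of these markers in the differences between the sets was not tested, and in bulk RNA fewer cells of a type and less RNA per cell cannot be told apart.

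The other SIK kinases gave no call. Sik2 ran from 31.9 to 35.7 CPM with HDM (median 34.2) and from 31.5 to 37.3 CPM with vehicle (median 35.3). The log2 fold change of Sik2 was -0.04 ± 0.04 (edgeR adjusted p = 0.862, and 0.533 with the block), lower with HDM in 4 of 6 numbers. In GENCODE M21 part of its exon bases (14.98%) overlap Ppp2r1b on the opposite strand, and the strand setting of the counting is not given in the sources used here. Sik3 ran from 49.7 to 53.1 CPM with HDM (median 53.0) and from 49.6 to 54.3 CPM with vehicle (median 51.4). It had the smallest fold change of the 10, 0.007 ± 0.032 (adjusted p = 1), and was higher with HDM in 3 numbers and lower in 3. Its sign turned with upper-quartile factors (-0.009) and with total library size (-0.012).

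Of the 2 acetyltransferase genes, Ep300 was higher with HDM. It lay at 133.1 CPM at the lowest, 152 at the median and 159 at the highest with HDM, against 123, 132 and 146 CPM with vehicle. The lowest HDM library was number 1, the deepest of the series, and the highest vehicle libraries were numbers 5 and 6. The log2 fold change was 0.17 ± 0.05 (edgeR adjusted p = 0.102, unadjusted p = 0.00712), called by DESeq2 (adjusted p = 0.0391) and by edgeR when HDM 1 (adjusted p = 0.0337) or vehicle 5 (adjusted p = 0.0409) was left out. With the block Ep300 rose by 0.17 ± 0.03 (adjusted p = 0.000268), a fold of 1.13, and it was called with any 1 number left out (adjusted p at most 0.00135). Within numbers 5 and 6 Ep300 was at 0.11 ± 0.04 (adjusted p = 0.0668), and within numbers 1 to 4 it rose by 0.21 ± 0.05 (adjusted p = 0.0159), with no difference called between the sets (-0.11 ± 0.05, interaction adjusted p = 0.555). Crebbp, its paralog, ran from 55.5 to 70.9 CPM with HDM (median 64.2) and from 56.8 to 66.4 CPM with vehicle (median 61.0). Its fold change was 0.05 ± 0.06 (adjusted p = 0.941, and 0.578 with the block), higher with HDM in 2 numbers and lower in 4. Whether the paralogs changed by different amounts was not tested.

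**Figure D3:**
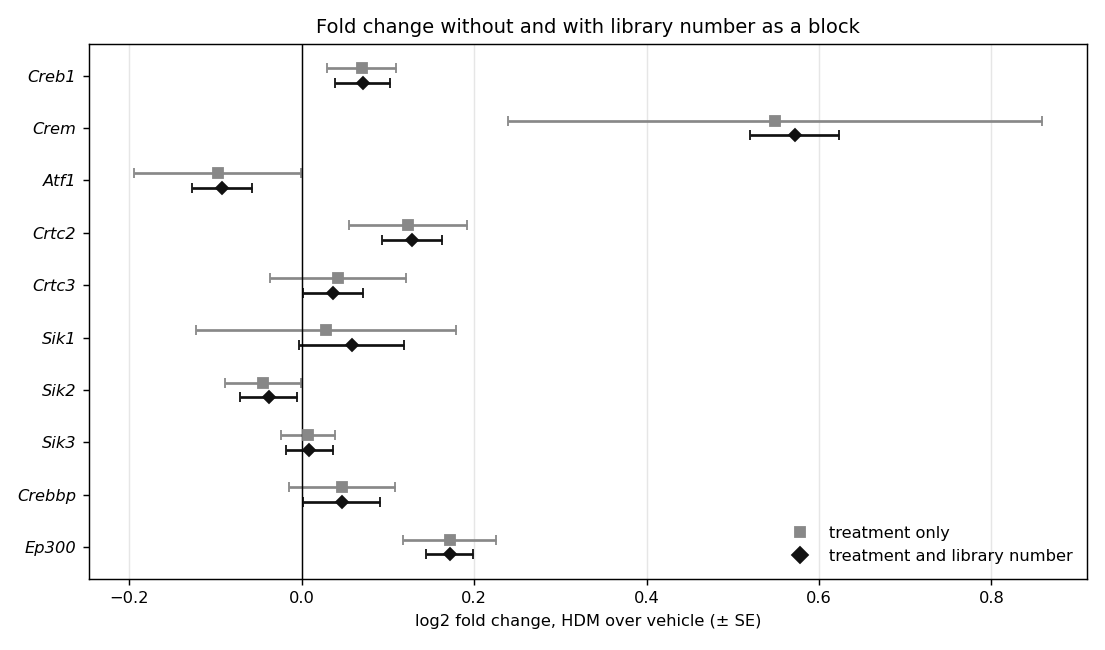
Log2 fold change of HDM over vehicle ± SE (x axis) for each of the 10 genes from edgeR, with treatment as the only term (squares) and with library number as a block (diamonds). The bar of Crem narrows from 0.31 to 0.05 with the block, and Crem, Ep300 and Crtc2 are the genes called there.

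To compare levels between genes, CPM were divided by the length of merged exons in GENCODE M21 (GRCm38), which may not be the annotation that was counted. On that scale (CPM per kb, mean ± SD, n = 6), Atf1 and Sik1 were the highest, Atf1 at 18.8 ± 2.13 with HDM and 20.1 ± 2.94 with vehicle and Sik1 at 18.5 ± 2.22 and 18.2 ± 4.79. Crtc2 (10.7 ± 0.713 with HDM, 9.82 ± 1.05 with vehicle) and Ep300 (10.5 ± 0.644 and 9.37 ± 0.683) followed. Lower still were Sik3 (5.60 ± 0.152 with HDM, 5.57 ± 0.206 with vehicle) and Crebbp (4.69 ± 0.377 and 4.54 ± 0.352). Crem stood at 5.43 ± 2.05 with HDM and 3.75 ± 1.82 with vehicle. With HDM that spread covers the means of Sik3, Crebbp, Sik2 and Crtc3, and with vehicle those of Crebbp, Sik2, Crtc3 and Creb1. The place of Crem among these genes is therefore not fixed. Within numbers 5 and 6 Crem averaged 8.03 with HDM and 6.07 with vehicle, and within numbers 1 to 4 it averaged 4.13 with HDM and 2.59 with vehicle. Sik2 stood at 3.56 ± 0.153 with HDM and 3.67 ± 0.206 with vehicle, Crtc3 at 3.74 ± 0.421 and 3.63 ± 0.334, and Creb1 at 3.32 ± 0.124 and 3.17 ± 0.169. Atf1 and Sik1 were not separable beyond their spread, nor were Crtc2 and Ep300. Creb1, the best known factor of the family, had the lowest mean over the 6 libraries of each treatment, but in vehicle libraries 1 to 4 it averaged 3.08 and Crem, at 2.59, was lower.

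Genes around the pathway were read from 6 lists chosen with earlier results of these data known. Neither the direction nor the size of their changes is therefore independent evidence. Among 20 relatives of CREB and ATF, edgeR called 2, against 5.37% of all tested genes, at a median log2 change of -0.01. Atf3, an immediate early repressor, rose to 320 ± 18.1 CPM with HDM, against 274 ± 16.2 CPM with vehicle (0.22 ± 0.05, adjusted p = 0.0147), and within numbers 1 to 4 the change was 0.17 (adjusted p = 0.0669; blocked 0.00109). Atf4, the effector of the integrated stress response, fell to 261 ± 17.9 CPM with HDM, against 300 ± 18.4 CPM with vehicle (-0.20 ± 0.05, adjusted p = 0.0423), a call that was lost in 9 of the 12 fits that left out 1 library (adjusted p 0.052 to 0.108), all but those without HDM 3, HDM 4 or vehicle 5. With the block Atf4 was called (adjusted p = 4.43e-05), also with any 1 number left out (adjusted p at most 0.00061), and its highest HDM library (278.7 CPM) lay below its lowest vehicle library (285.05 CPM). Creb3l2, a relative held in the endoplasmic reticulum membrane, gave 0.17 ± 0.07 (adjusted p = 0.259, with block 0.0326). Crebrf stood at -0.22 ± 0.11 (adjusted p = 0.388, and 0.0031 with the block), which brings the blocked count to 4, 2 in each direction. These are 4 of 20, beside 14.7% of all tested genes called with the block.

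Kinases and phosphatases that act on CREB gave no call without the block: of 17 tested among 18, edgeR called 0 (1 at an unadjusted p under 0.05, 0 with DESeq2 or limma-voom, 2 with the block), and the median change was 0.004. Over all 13530 tested genes, 1889 had an unadjusted edgeR p under 0.05, and 14.7% were called with the block. Mapkapk3, a kinase downstream of p38, gave 0.12 ± 0.05 (adjusted p = 0.226, with block 0.00457) and Rps6ka5, the gene of the CREB kinase MSK1, at 0.16 ± 0.12 (adjusted p = 0.72, and 0.0216 with the block). Prkaca, the catalytic subunit of protein kinase A, was at 0.07 ± 0.04 (adjusted p = 0.6) and Rps6ka4 at -0.04 ± 0.03 (adjusted p = 0.721). LKB1 is the kinase that activates SIKs and other kinases of the AMPK family. Of 14 tested genes of its complex and that family, from 16 listed, 1 was called, a share of 7.14% near the 5.37% of all tested genes, and 3 with the block, beside 14.7%. The 1 call was Nuak1, an AMPK-related kinase, which rose to 13.0 ± 0.839 CPM with HDM, against 9.30 ± 0.788 CPM with vehicle (0.48 ± 0.07, adjusted p = 0.000472), with ranges that did not overlap. Its relative Nuak2 was at -0.31 ± 0.10 (adjusted p = 0.104) and fell with the block (-0.32, adjusted p = 7.69e-06). Without the block Nuak2 was called with total library size (adjusted p = 0.0439) and DESeq2 (0.0464). It was not called with upper-quartile factors (0.0593), limma-voom (0.089) or no low-count filter (0.124). In each number set alone Nuak2 fell, by edgeR, in numbers 1 to 4 (adjusted p = 0.00287) and in numbers 5 and 6 (adjusted p = 0.00791). Mark2 gave 0.10 ± 0.03 (adjusted p = 0.0825, with block 0.0202) and Mark4 at 0.09 ± 0.04 (adjusted p = 0.262).

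Of 15 genes for class IIa histone deacetylases, 14-3-3 proteins and calcineurin subunits, which SIKs phosphorylate or which decide where CRTCs reside, edgeR called 0 (0 at an unadjusted p under 0.05, 0 with DESeq2, limma-voom or the block). Over all 13530 tested genes, 1889 had an unadjusted edgeR p under 0.05. The smallest p-values of the 15 belonged to Ywhaz at 0.06 ± 0.03 (adjusted p = 0.419), Ywhah at 0.05 ± 0.03 (0.652), Ppp3r1 at 0.06 ± 0.04 (0.698) and Hdac4 at 0.06 ± 0.05 (0.839). Among CBP/p300 partners, 2 of 8 tested from 10 listed rose, beside 2.9% of all tested genes, and 3 of 8 were called with DESeq2 (7.06% of all tested genes) and with the block (14.7%). Cited2, whose product binds CBP and p300 and which is also in the list of CREB targets, rose to 96.4 ± 15.2 CPM with HDM, against 39.8 ± 7.04 CPM with vehicle (1.28 ± 0.12, adjusted p = 2.29e-05). Kat2b, the gene of the acetyltransferase PCAF, rose to 42.7 ± 1.45 CPM with HDM, against 36.5 ± 1.28 CPM with vehicle (0.23 ± 0.03, adjusted p = 0.00115), and in numbers 5 and 6 alone the change was 0.16 (adjusted p = 0.0646; blocked 0.0475). Ncoa3, a coactivator of nuclear receptors, gave 0.07 ± 0.02 (adjusted p = 0.114, with block 0.0333) and Ncoa2 at -0.07 ± 0.03 (adjusted p = 0.261).

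Of 35 known CREB target genes listed, 30 passed the filter (Ppargc1a, Pck1, Bdnf, Sst and Vgf did not), and 21 of the 30 rose, at a median log2 change of 1.11, while none fell, beside 2.9% of all tested genes higher and 2.47% lower. With the block 27 rose, beside 7.9%. Many of them are also induced through NF-kB and MAP kinases. The list holds none of the members, and so leaves out Sik1, also known as a CREB target, and Crem. Over all 12 libraries without the block, neither Sik1 (0.03 ± 0.15) nor Crem (0.55 ± 0.31) was called. Nr4a1, an orphan nuclear receptor gene, lay at 123 to 198 CPM with HDM (median 143) and at 11.5 to 25.0 CPM with vehicle (median 14.9), a log2 fold change of 3.19 ± 0.21 (edgeR adjusted p = 4.78e-07). Ptger4, a prostaglandin E receptor gene, was at 50.8 to 59.6 CPM with HDM and 22.2 to 29.8 CPM with vehicle (1.08 ± 0.07, adjusted p = 4.4e-07). Ptgs2, the inducible cyclooxygenase, averaged 781 ± 179 CPM with HDM and 14.1 ± 9.93 CPM with vehicle (5.83 ± 0.44, adjusted p = 2.27e-06), and Il10 averaged 24.8 ± 8.84 CPM with HDM and 1.13 ± 0.673 CPM with vehicle (4.41 ± 0.37, adjusted p = 5.68e-06). Dusp1, a MAP kinase phosphatase gene named for its printed window, averaged 863 ± 107 CPM with HDM and 135 ± 68.2 CPM with vehicle (2.68 ± 0.27, adjusted p = 3.93e-05). In each of these 5 genes, 4 of them named for the smallest p, all HDM libraries were above all vehicle libraries, as in 2.32% of all tested genes. Of the target genes with a promoter window, a half-site was present in 15 of the 17 that rose and in 5 of the 7 that were tested and not called. Over all genes with a window the share was 23.0%, and these genes were listed as known CREB targets. A gene with more than 1 window counted if any of its windows held a half-site.

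**Figure D4:**
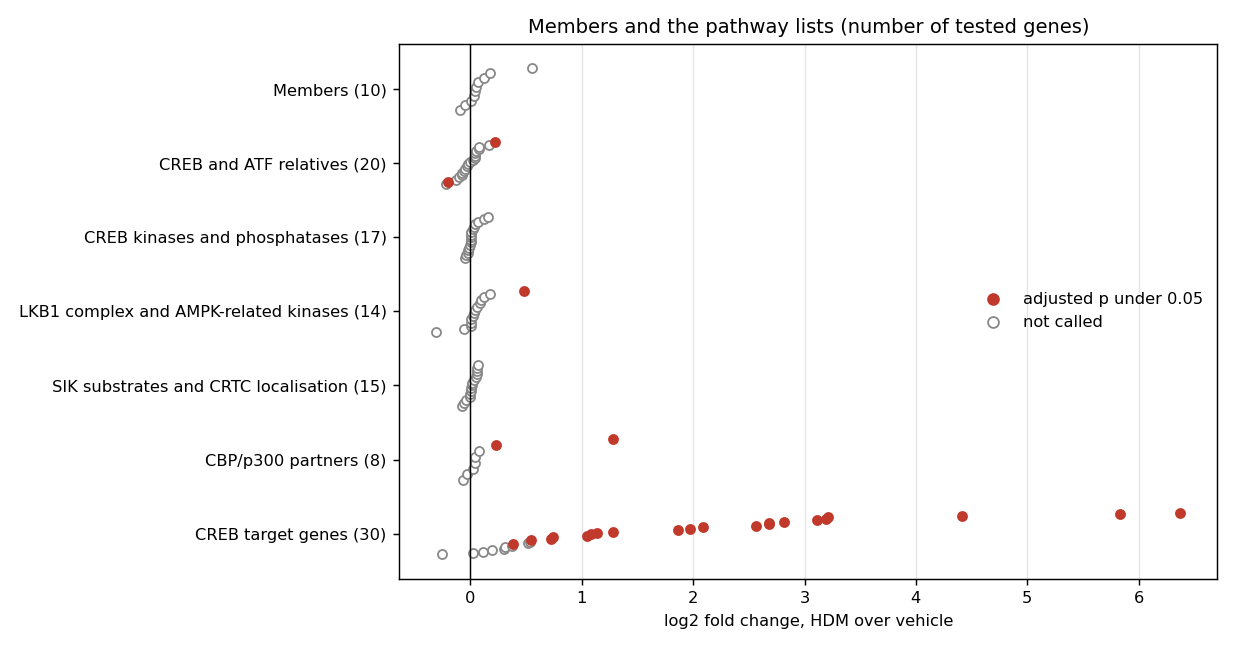
Log2 fold change of HDM over vehicle (x axis) for the 10 members and for the tested genes of 6 pathway lists, 1 point a gene, filled where edgeR's adjusted p without the block is under 0.05. The members lie between -0.10 and 0.55 with 0 filled, and 21 of the 30 CREB target genes are filled, all to the right of 0.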

How the data were processed

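Libraries were made with a stranded mRNA kit, per the labels' protocols. The authors deposited 1 table of whole-number counts per gene symbol, and each of its 12 columns was matched to a library by its label. The submitters' processing notes name featureCounts 2.0.6 of the Subread package, the aligner STAR 2.6.0c, trimming tools (cutadapt 4.5 and Trim Galore 0.6.10) and FastQC 0.12.1, and the builds GRCm38 and mm39 without roles; the strand setting of the counting is not given in the sources used here. HDM was compared with vehicle in edgeR 4.0.16 (R 4.3.3, limma 3.58.1) by the two-sided quasi-likelihood test with TMM factors, filterByExpr, treatment as the only term, and Benjamini-Hochberg adjustment over all 13530 tested genes. It was tested on simulated data. The SE is the absolute log2 fold change over the square root of F. Alternatives were upper-quartile and total-size scaling, DESeq2 1.42.0, limma-voom, no filter, each library left out, each number set alone, and the library number as a block.

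Deviations from the group means of HDM and vehicle libraries of the same number correlated at 0.367 to 0.672 across genes in all 6 numbers, above the bound of 0.1, so libraries of 1 number were treated as pairs. The pairing comes from the data and not from the labels. This check cannot tell pairs from the split between the number sets, which by itself makes libraries of the same number deviate alike. No correlation between libraries of different numbers was set beside these values. Calls with the block therefore take the pairing as given. The members and lists were chosen with earlier results of these data known. Named are the members and up to 4 genes per list with the smallest p. The rule would also have named genes most like each member called without the block, of which there were 0.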

Additional observations from a re-analysis of the deposited data

Results flagged for a closer look

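The level of Ep300 in the HDM library numbered 1, 133.1 CPM, stood apart from the other 5 HDM libraries, of which the nearest was at 149 CPM. It was the 1 case among 20 sets of 6 libraries examined, and chance gives about 1 in 20. This library is the deepest, at 119.7 M reads, and without it the change of Ep300 was 0.20 ± 0.05 on the log2 scale (edgeR adjusted p = 0.0337).

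The HDM effect on Sik1 differed between the numbers 5 and 6 (4 libraries) and the numbers 1 to 4 (8 libraries), by -0.48 ± 0.05 on the log2 scale (5 and 6 minus 1 to 4, edgeR interaction adjusted p = 3.36e-05). It was lower with HDM in 2 of 2 numbers of the first set and higher in 4 of 4 of the second. The sets were read from the first principal component of these libraries and not from the labels, and what separates them was not tested.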

How the results depend on the processing

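Without the block, the count of called genes (727) ran from 561 to 694 with 1 library left out, 572 without the low-count filter, and 1139 in numbers 5 and 6 alone. With the replicate block it was 1990 (upper-quartile factors 2141, total size 2223, without 1 number 1644 to 1799: 1644, 1700, 1722, 1687, 1799 and 1786), and within numbers 1 to 4 it was 1741 and within 5 and 6 1176. The count of members called, 0, became 1 with DESeq2, 0 to 1 with a library left out, 3 in each number set alone (1 higher and 2 lower in 5 and 6, 3 higher in 1 to 4), 3 with the block (Crem, Ep300 and Crtc2, all higher) and without any 1 number, though without number 1 these are 2 higher and 1 lower (Atf1 in place of Crtc2), 4 with the block and other scalings (3 higher and 1 lower, Atf1), and with the block within the sets 4 and 3. CREB and ATF relatives (2) gave 1 without the filter and in numbers 1 to 4, 1 to 2 with a library left out, 4 in numbers 5 and 6, with or without the block, 4 with the block under each scaling, and 3 to 4 without 1 number. CREB kinases and phosphatases (0) gave 0 with a library left out, 1 in numbers 5 and 6 with or without the block, 2 with the block under each scaling, 2 with the block in numbers 1 to 4, and 1 to 2 without 1 number. LKB1 and related kinases (1) gave 2 with total size, 3 with DESeq2, 1 to 2 with a library left out, 3 in numbers 1 to 4 and 2 in numbers 5 and 6, with or without the block, 3 with the block, 2 there under other scalings, and 2 to 3 without 1 number. SIK substrates (0) gave 1 with the block and total size and 0 to 1 without 1 number. CBP/p300 partners (2) gave 1 in numbers 5 and 6, 3 with DESeq2, 3 with the block, and 2 to 3 without 1 number. With the block and other scalings, 2 of these partners were higher and 1 was lower. The CREB target genes (21) gave 17 to 27 over all alternatives.

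Signs turned, without a call except for Sik1 in numbers 5 and 6, as follows. Sik1 was at -0.26 in numbers 5 and 6 with or without the replicate block, and ran from -0.05 to 0.12 with a library left out (HDM 3 -0.0023, HDM 5 -0.00095, vehicle 1 -0.032, vehicle 2 -0.049, vehicle 4 -0.0094). Sik3 (-0.0056 to 0.025 with a library left out) was at -0.0089 with upper-quartile factors, -0.012 with total size, -0.0075 and -0.011 with the block and those scalings, -0.0056 without vehicle 1 and -0.0024 with the block without number 5. Crebbp was at -0.070 in numbers 5 and 6, -0.076 there with the block, and -0.010 with the block without number 2. Crtc3 without HDM 5 was at -0.0046 (up to 0.088 without HDM 2), and Hdac4 in numbers 5 and 6 at -0.0061. The median log2 change of all tested genes moved by -0.016 with upper-quartile factors and by -0.020 with total size. With the block and those scalings it moved by -0.016 and -0.019. The number sets alone were chosen as alternatives with earlier results known, and the blocked subsets, blocked scalings, left-out numbers and the interaction after seeing the data. Causes of these shifts were not tested.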
